A study of Mus musculus with 8 samples.

Results

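The receptors for estrogen (Esr1 and Esr2), progesterone (Pgr), glucocorticoid (Nr3c1), mineralocorticoid (Nr3c2) and prolactin (Prlr) were followed across 3 nuclei of the mouse hypothalamus: the dorsomedial nucleus (DMH), the ventromedial nucleus (VMH) and the arcuate nucleus (Arc). The 6 genes were chosen by name, and every spot of the arrays annotated to them was taken: 13 of 55681 probes, and 6 of 34836 gene names. Neurons with green fluorescence were collected by laser microdissection, and many were pooled in each sample, giving 3 samples of DMH, 3 of VMH and 2 of Arc, each on its own 1-colour array. All samples came from 2-month-old females carrying an Nkx2-1-CreERT2 driver and a Cre-dependent ZsGreen reporter at the Rosa locus, and all mice had received tamoxifen. The label therefore marks cells with Nkx2-1 promoter activity at the time of tamoxifen, neurons of several kinds in each nucleus, and each sample is a pool. The labels tie no sample to an animal, so the p-values rest on a spread between samples that may be technical in part, and they are too small if a nucleus was sampled more than once in an animal.

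The steroid receptors are ligand-activated transcription factors. On binding their hormone they leave chaperones such as the Hsp90 complex, bind DNA as dimers and recruit coactivators or corepressors. Esr1 is the main estrogen receptor of the ventrolateral VMH and the Arc, where estrogen is known to induce Pgr, and both receptors serve female sexual behaviour and feedback on gonadotropins. Nr3c1 is found in most cell types and carries the glucocorticoid feedback on the hypothalamus, while Nr3c2 binds the same hormones with higher affinity. Prlr is a cytokine receptor of the cell surface that signals through Jak2 and the Stat5 proteins, with Socs2 and Cish as induced inhibitors, and in the hypothalamus it serves the feedback of prolactin on dopamine neurons and the changes of motherhood.

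The arrays held 4 probes for Esr1, 3 for Pgr, 2 each for Nr3c1 and Prlr, and 1 each for Esr2 and Nr3c2, all of 60 bases. The probes that carry the results are shown here from 5′ to 3′, as deposited. Whole sequences are given for probes in coding sequence, and 30 bases for the others. Capitals mark bases within a stretch of 20 bases that also occurs near the start of other genes.
Esr1 coding probe A_55_P2030883: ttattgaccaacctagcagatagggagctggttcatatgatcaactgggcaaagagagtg
Esr1 downstream probe A_52_P237077, bases 1 to 30: ttttttgtagacgtttcaaactaccgtgtc
Pgr coding probe A_51_P213476: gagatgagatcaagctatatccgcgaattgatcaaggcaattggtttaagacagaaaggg
Pgr probe A_55_P2095663, bases 1 to 30: gtgtataaacacatggcatgtttagttagg
Prlr probe A_66_P139387, bases 1 to 30: caggttaacactacagagtcatgaaggaat
Prlr coding probe A_52_P458279: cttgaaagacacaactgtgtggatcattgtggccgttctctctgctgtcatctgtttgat
Nr3c2 probe A_55_P2141978: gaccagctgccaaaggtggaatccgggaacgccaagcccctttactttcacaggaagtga
Esr2 probe A_55_P2008197, bases 20 to 49: TGGGCCAAGCATATTCAAACCACCAtgcac

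Positions are those of the files, in mouse build mm9. The Esr1 coding probe, in the part that encodes the ligand-binding domain, lies on the minus strand of chromosome 10 at 5489352 to 5489411, and the downstream Esr1 probe lies at 5343056 to 5343115, farther along the transcript towards its 3′ end. Pgr probes A_51_P213476, also within the ligand-binding domain, and A_55_P2095663 lie on the plus strand of chromosome 9 at 8961434 to 8961493 and at 8968492 to 8968551. The Prlr coding probe, which covers the membrane-spanning part, lies on the plus strand of chromosome 15 at 10255629 to 10255688, and probe A_66_P139387 lies downstream of it at 10259066 to 10259125. The Nr3c2 probe ends at the stop codon of its reading frame, on the plus strand of chromosome 8 at 79766370 to 79766429. The brighter Nr3c1 probe, A_55_P1967885, lies on the minus strand of chromosome 18 at 39571641 to 39571700. The files give no exon or UTR annotation, so the part of the transcript is left unnamed for the other probes.

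All levels below are log2 signals after subtraction of that array's 75th percentile, so 0 is a level that most spots do not reach, and differences are log2 differences unless called folds. The 75th percentile itself was 2107 to 3042 intensity units on DMH arrays, 1866 to 2036 on VMH arrays and 1806 to 1818 on Arc arrays, and 72.5% to 78.8% of spots were well above background. Between arrays of 1 nucleus, r across genes was 0.940 to 0.964. The labelled tissue was checked against markers of each nucleus. In DMH, 8 of 10 DMH markers were higher than in VMH, and 7 of 13 VMH markers were lower. Against Arc, 4 of 10 DMH markers were higher in DMH and 7 of 13 Arc markers lower. But the summed signal of the DMH markers, as multiples of the 75th percentile, was 129 to 159 in DMH, 134 to 159 in VMH and 187 to 197 in Arc. Most of that sum came from Lhx6, at means of 6.73, 7.14 and 7.51. The median over the 10 DMH markers was 3.71 for DMH minus VMH and 0.88 for DMH minus Arc. In VMH, 6 of 13 VMH markers were higher and 10 of 13 Arc markers lower than in Arc. Probes were kept if, in 1 or more nuclei, all arrays were well above background, and the brightest kept probe stood for each gene. These steps kept 12 of the 13 receptor probes and a probe for each of the 6 genes, so all 6 entered the test. Among the markers, Grp and Prdm13 passed the filter through DMH alone, Fezf1 through VMH alone and Slc6a3 through Arc alone. Their directions are thus not independent of the filter. Earlier results were also known when the marker lists were chosen, so the counts are no independent check. Of all genes, 1.23% were called between DMH and VMH, 0.416% between DMH and Arc, and 0.977% between VMH and Arc.

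Prlr was the receptor gene that differed between nuclei past the threshold, and it was lowest in DMH. Its brightest probe, A_66_P139387, read -0.71, -0.38 and -0.79 in DMH, against 1.19, 1.22 and 1.06 in VMH and 0.60 and 0.46 in Arc. Every DMH array lay below every Arc array, and every Arc array below every VMH array. In DMH the level was -0.63 ± 0.22 (SD, n = 3), in VMH 1.16 ± 0.09 (n = 3) and in Arc 0.53 ± 0.10 (n = 2). DMH was thus 3.44-fold below VMH, a difference of -1.78 ± 0.19 (SE; limma, Benjamini-Hochberg adjusted p = 0.00694, 95% interval -2.22 to -1.34). Prlr was 1 of 6 receptor genes called lower in DMH than in VMH, where 0.788% of all 27427 genes tested were called lower and 1.23% in either direction.

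The other pairs gave Prlr no call. DMH was 1.16 below Arc (2.23-fold, limma adjusted p = 0.0755, 95% interval of the difference -1.65 to -0.67), and VMH was 0.62 above Arc (adjusted p = 0.254, interval 0.13 to 1.11). Against the mean of the other nuclei, Prlr was 1.20 ± 0.17 (SE) higher in VMH (adjusted p = 0.0205) and 1.47 ± 0.17 lower in DMH, at a difference of -1.47 (adjusted p = 0.0172). These contrasts share arrays with the pairs and are not separate evidence. Over all genes, 0.872% were called higher in VMH (1.34% in either direction) and 0.474% lower in DMH (0.839% in either direction). Leaving out single arrays brought the adjusted p for VMH against the others to as much as 0.103, without VMH replicate 1, and for DMH against the others to as much as 0.0712, without DMH replicate 3. The call for DMH against VMH held without any of the 8 arrays, with adjusted p of 0.0134 to 0.0423.

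The coding probe of Prlr had the same sign for DMH against VMH, with more spread. It read -2.41, -2.60 and -3.85 in DMH, -1.34, -0.66 and -1.94 in VMH, and -3.04 and -1.72 in Arc. All DMH arrays lay below all VMH arrays, while the Arc arrays overlapped both nuclei. DMH minus VMH was -1.64 ± 0.53 (SE), close to the value of the brighter probe, but it did not pass the threshold in the fit over all probes (limma adjusted p = 0.250). In that fit the brighter probe had an adjusted p of 0.0099, and 0.981% of the 41493 probes tested were called.

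**Figure D1:**
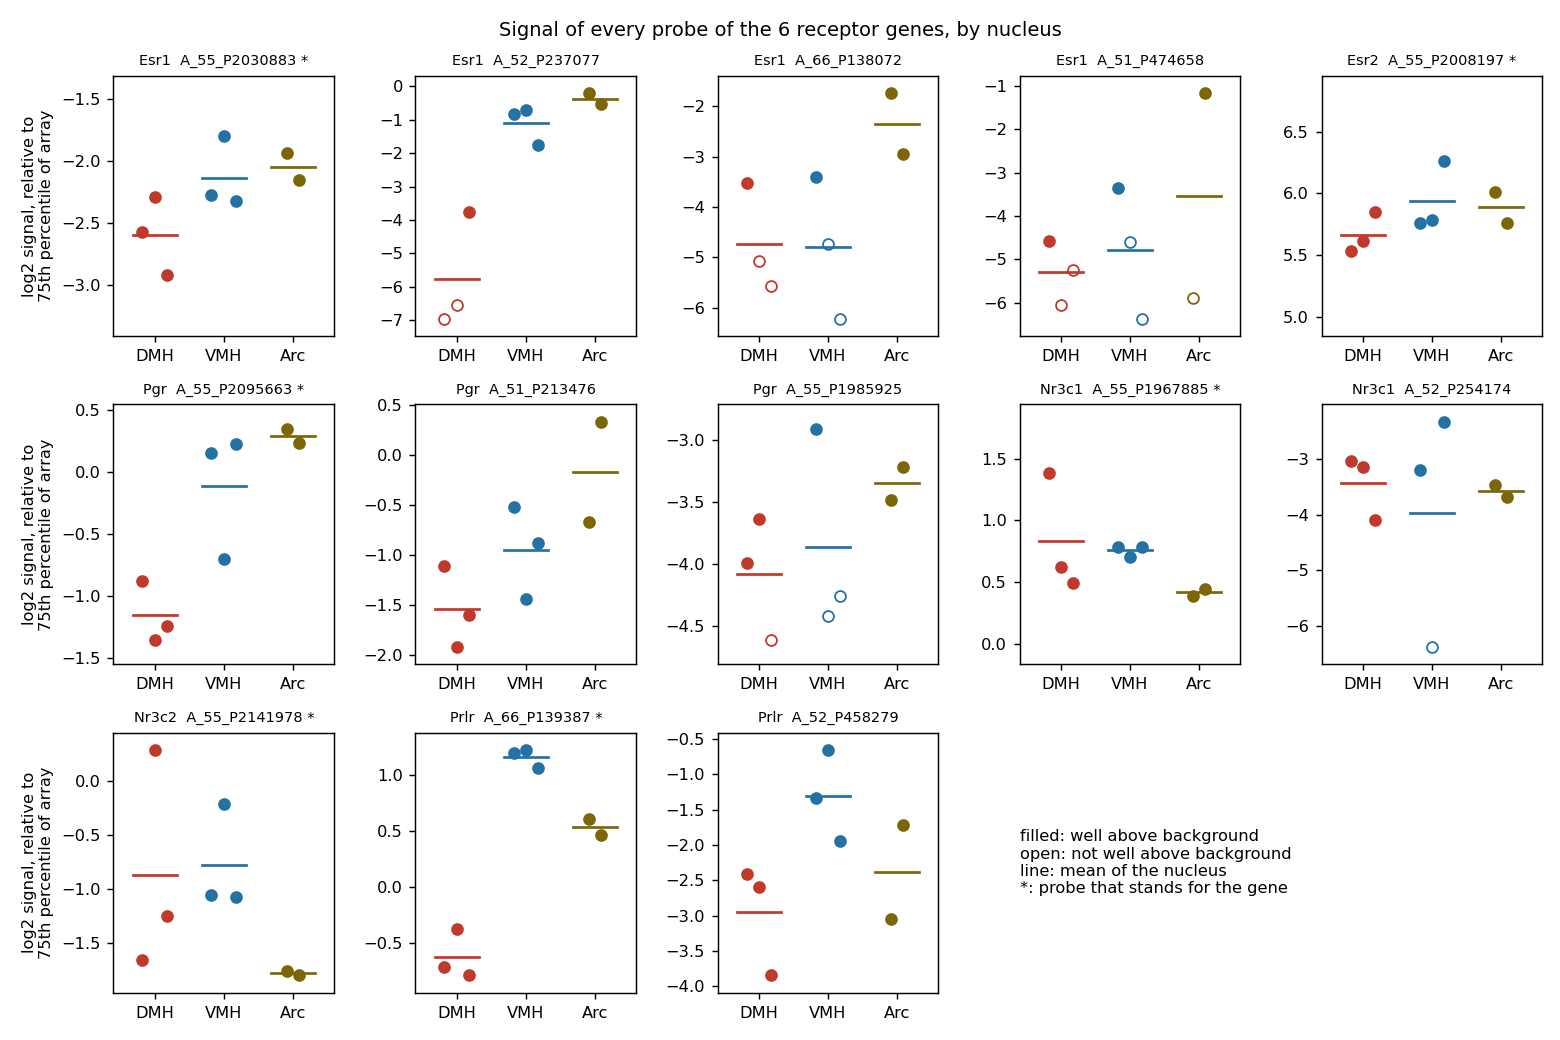
Signal of each of the 13 receptor probes, as log2 minus the 75th percentile of its array (y axis, with its own range in each panel), for DMH, VMH and Arc (x axis). Points are arrays, open where the spot was not well above background, lines are means, and stars mark the probe that stands for its gene. The 3 DMH arrays lie below all other arrays for Prlr probe A_66_P139387, for Pgr probe A_55_P2095663 and for Esr1 probe A_52_P237077.

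Esr1, the main estrogen receptor of these nuclei, gave different pictures with different probes. The coding probe, which stood for the gene, read -2.58, -2.29 and -2.93 in DMH, against -2.28, -1.80 and -2.32 in VMH and -1.94 and -2.16 in Arc. DMH and VMH overlapped, and the difference was -0.46 ± 0.24 (SE; limma adjusted p = 0.460, 95% interval -1.03 to 0.10). DMH lay 0.55 below Arc (difference -0.55, adjusted p = 0.360), and VMH and Arc differed by -0.09 (adjusted p = 0.921). At the gene level Esr1 was therefore not called between any pair.

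The downstream Esr1 probe, printed in 10 spots on each array, was far lower in DMH. It read -6.95, -6.55 and -3.76 in DMH, against -0.82, -0.70 and -1.77 in VMH and -0.21 and -0.54 in Arc. Every DMH array lay below every other array, and only DMH replicate 3 was well above background in DMH, while all VMH and Arc arrays were. The filter thus kept this probe through VMH and Arc, so its being lower in DMH is not independent of the filter. The 10 spots of an array agreed closely, with SDs of 0.06 to 0.28, so the spread among DMH arrays lay between samples and not between spots. Because 2 DMH arrays give only a bound, DMH was at least 11.8-fold below VMH, with each dim array set to the lowest signal well above background (-4.90 and -5.32 on DMH replicates 1 and 2). The fit took signals as measured, which on 2 of the DMH arrays were not well above background. With -5.75 ± 1.74 (SD, n = 3) in DMH and -1.10 ± 0.59 (n = 3) in VMH, it gave a difference of -4.65 ± 0.78 (SE; limma adjusted p = 0.0440 over all probes).

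Against Arc, at -0.38 ± 0.23 (n = 2), the downstream Esr1 probe was at least 19.5-fold lower in DMH, with an adjusted p of 0.0583 on measured signals (limma). VMH and Arc differed by -0.72 (adjusted p = 0.774). Against the mean of both, DMH was at least 15.2-fold lower (adjusted p = 0.0312, where 0.762% of probes were called). Counted over all 6 comparisons, 5 calls fell on receptor probes: 2 of this Esr1 probe (against VMH and against the mean), and the 3 of the brighter Prlr probe. The 5 calls come from 2 probes in comparisons that share arrays, so they are not separate evidence. The 2 calls of the Esr1 probe are also not independent of the filter, which kept it through VMH and Arc. The shares of all probes called were 0.434% for DMH against Arc, 0.783% for VMH against Arc, 1.02% for VMH against the mean of the others and 0.47% for Arc against the mean. The call against VMH was lost without any 1 of 7 arrays, with adjusted p up to 0.146 (without VMH replicate 2). The adjusted p reached 0.00554 without DMH replicate 3, which left only DMH arrays not well above background. The difference between the 2 Esr1 probes was not tested.

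The remaining Esr1 probes were dim. Probe A_66_P138072, annotated to a cDNA clone, was well above background on 1 of 3 DMH arrays, 1 of 3 VMH arrays and both Arc arrays, where it read -1.74 and -2.94. It was at least 3.99-fold lower in DMH and at least 3.08-fold lower in VMH than in Arc, without passing the threshold (limma adjusted p = 0.256 and 0.289). The filter kept this probe through Arc alone, so its being higher in Arc is not independent of the filter. Probe A_51_P474658, which lies between the other downstream positions on chromosome 10, was well above background on 1 array of each nucleus and was not tested. It read -5.89 and -1.18 on the 2 Arc arrays.

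Esr2, the second estrogen receptor, had a signal that few probes exceeded. Its only probe read 5.53, 5.62 and 5.85 in DMH, against 5.76, 5.79 and 6.26 in VMH and 6.02 and 5.76 in Arc. The nuclei overlapped, and only 0.688% to 0.913% of probes were brighter on an array. DMH minus VMH was -0.27 (limma adjusted p = 0.632, 95% interval -0.77 to 0.23), and VMH minus Arc was 0.05 (adjusted p = 0.952). The probe, on the minus strand of chromosome 12 at 77221426 to 77221485, is not unique to Esr2. Stretches of 20 of its bases, on either strand, were also found in the promoter windows of 12 other genes, Abcg2 and Cpeb3 among them, and in a probe of 1 other array gene. In the windows searched, 300 bases around each of 32851 transcript starts from RefSeq, no other receptor probe shared such a stretch. How much of the signal comes from Esr2 transcripts was not tested, so the levels are those of the probe, not of the gene.

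Pgr, the progesterone receptor, was lowest in DMH on its brightest probe, without passing the threshold. The probe read -0.87, -1.35 and -1.24 in DMH, against 0.16, -0.70 and 0.23 in VMH and 0.35 and 0.23 in Arc. The DMH arrays did not overlap those of VMH or Arc, with VMH replicate 2 nearest to them. The difference was -1.05 ± 0.29 (SE) from VMH, 2.07-fold (limma adjusted p = 0.162, 95% interval -1.71 to -0.38), and -1.45 ± 0.32 from Arc, 2.73-fold (adjusted p = 0.113, interval -2.19 to -0.70). VMH and Arc differed by -0.40 (adjusted p = 0.624).

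The coding probe of Pgr read -1.12, -1.92 and -1.60 in DMH, against -0.52, -1.45 and -0.88 in VMH and -0.68 and 0.33 in Arc. DMH was below both Arc arrays but overlapped VMH. Its differences were -0.60 from VMH (limma adjusted p = 0.543) and -1.38 from Arc (adjusted p = 0.190). The third probe, annotated to another Pgr transcript, was well above background on 5 of 8 arrays and ranged from -4.61 to -2.91, with adjusted p of 0.515 or more between pairs.

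Nr3c1, the glucocorticoid receptor, was detected on all arrays with its brighter probe, at 1.39, 0.63 and 0.50 in DMH, against 0.79, 0.70 and 0.79 in VMH and 0.39 and 0.45 in Arc. DMH replicate 1 stood above the other arrays, and both Arc arrays lay below all others. The differences were small: 0.08 for DMH minus VMH (limma adjusted p = 0.925, 95% interval -0.52 to 0.67), 0.42 for DMH minus Arc (adjusted p = 0.511, interval -0.25 to 1.08) and 0.34 for VMH minus Arc (adjusted p = 0.645). DMH replicate 1 was also the array with the highest 75th percentile, and without it DMH minus VMH became -0.20. The dimmer Nr3c1 probe ranged from -6.39 to -2.32 and was not well above background on VMH replicate 2. None of its pairs passed the threshold (adjusted p of 0.844 or more).

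Nr3c2, the mineralocorticoid receptor, varied within DMH as much as between nuclei. Its probe read -1.65, 0.28 and -1.24 in DMH, against -1.05, -0.21 and -1.08 in VMH and -1.76 and -1.80 in Arc. Replicate 2 was the highest array in both DMH and VMH, and both Arc arrays were below all others. DMH minus Arc was 0.90 (limma adjusted p = 0.456, 95% interval -0.38 to 2.19), VMH minus Arc was 0.99 or 1.99-fold (adjusted p = 0.466, interval -0.29 to 2.28), and DMH minus VMH was -0.09 (adjusted p = 0.957, interval -1.24 to 1.06). These intervals leave room for changes of more than 2-fold in either direction between DMH and VMH.

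Across the 6 genes, the median difference was -0.37 for DMH minus VMH and -0.38 for DMH minus Arc, against -0.04 and -0.05 over all genes tested. For VMH minus Arc it was 0.20, against -0.03. No receptor gene was called between DMH and Arc or between VMH and Arc, where 0.416% and 0.977% of all genes were called, but at an unadjusted p under 0.05 there were 2 receptor genes for DMH against Arc (Prlr and Pgr) and 1 for VMH against Arc (Prlr). Over all genes, 16.6% and 14.2% had such a p in these pairs, so 1 gene in 6 is near the background. Arc against the mean of the others gave 0 calls among the receptors, with 0.609% of all genes called, and 1 receptor (Pgr) at an unadjusted p under 0.05, as had 15.7% of all genes. In a moderated F test for any difference among the nuclei, Prlr had an adjusted p of 0.0124 and Pgr of 0.112, while the values for Esr1, Esr2, Nr3c1 and Nr3c2 lay between 0.408 and 0.695. That test called 1.68% of all genes, and Prlr was not among them without VMH replicate 1 or without VMH replicate 2.

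**Figure D2:**
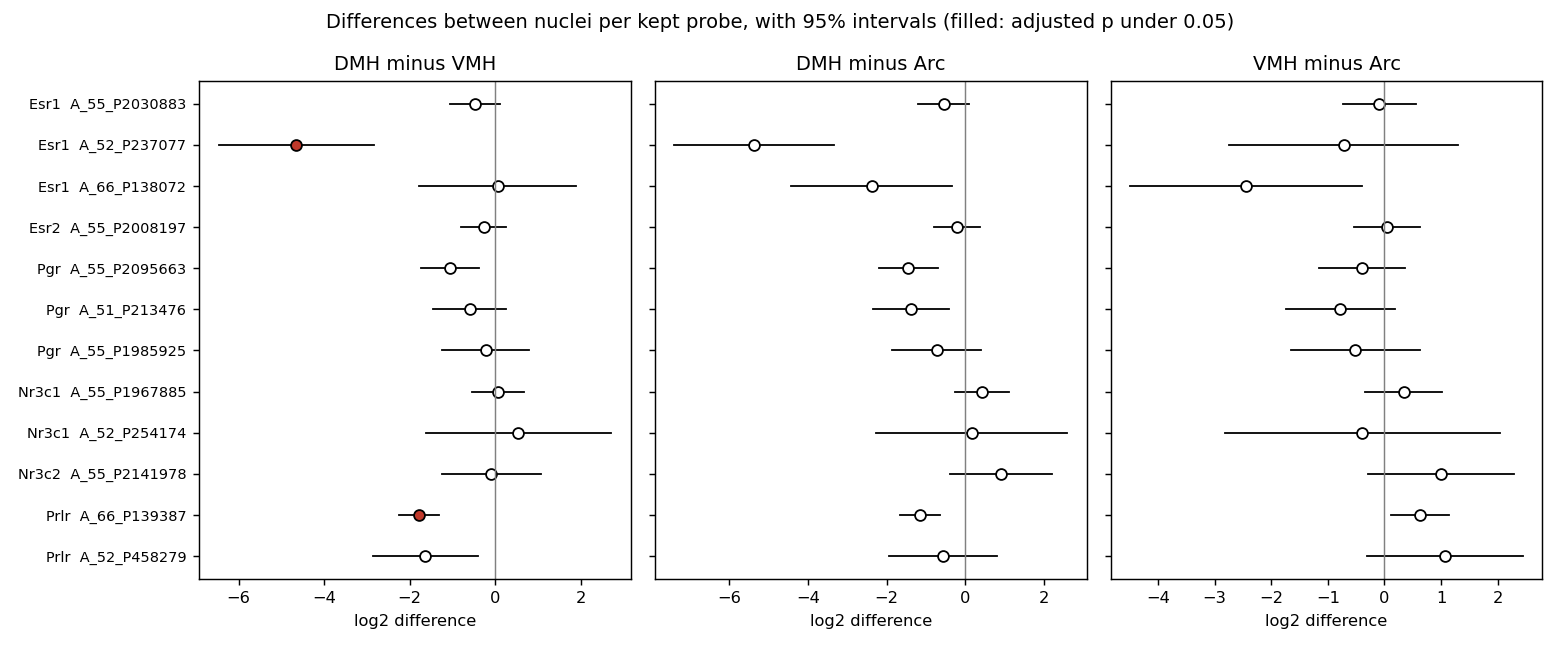
Log2 difference between nuclei (x axis) for each of the 12 kept receptor probes (y axis), for DMH minus VMH, DMH minus Arc and VMH minus Arc, with 95% intervals from limma. Filled points passed an adjusted p of 0.05 over all probes. These are the Esr1 probe A_52_P237077, at -4.65 on measured signals, and the Prlr probe A_66_P139387, at -1.78, both for DMH minus VMH.

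The genes whose levels ran most like those of each receptor over the 8 arrays were found among 14712 named genes. For Prlr these were H2-Q8 (Pearson r = 0.980), C1ql2 (r = 0.970) and Oxtr, the oxytocin receptor (r = 0.966). For Pgr, Crhr2, a receptor for urocortins, came first (r = 0.972). Crhr2 read -2.22, -3.53 and -3.33 in DMH, against -1.08, -1.73 and -0.57 in VMH and -0.02 and -0.05 in Arc, which is the order of nuclei seen for Pgr. The Esr1 coding probe ran most like Kcnn3, a calcium-activated potassium channel (r = 0.976), and the downstream Esr1 probe like Tspyl2 (r = 0.983) and Garnl3 (r = 0.982). Nr3c1 ran with Nsg2 (r = 0.994) and Atp5a1 (r = 0.984), Nr3c2 with B3gat3 (r = 0.962) and the Esr2 probe with Cyp2d11 (r = 0.970). With 8 arrays of 3 nuclei and so many genes searched, these values describe shared patterns of nuclei and arrays and nothing more. Among the receptors themselves, r was 0.74 for Prlr with Esr1 and 0.72 for Prlr with Pgr, and -0.56 for Nr3c2 with Pgr.

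Among other receptors of the steroid type, 10 of 12 were measured and none was called between any pair (limma), with an unadjusted p under 0.05 for 3 of them between DMH and VMH, 0 between DMH and Arc, and 2 between VMH and Arc. Over all genes, 13.2%, 16.6% and 14.2% had such a p in these pairs. Esrra, an orphan receptor related to Esr1, read -1.32, -1.08 and -1.01 in DMH, against -0.64, -0.57 and -0.67 in VMH and -1.83 and -1.28 in Arc. All VMH arrays lay above all others. DMH minus VMH was -0.51 (adjusted p = 0.347), and VMH minus Arc was 0.93 (adjusted p = 0.141). All 13 receptor chaperones were measured and none was called, with Bag1, a cofactor of Hsp70, at -0.79 for DMH minus Arc (adjusted p = 0.169).

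Of 20 coactivators and corepressors, 1 was called. Cited1, a transcriptional coactivator reported to bind estrogen receptors, read 3.34, 3.43 and 3.61 in DMH, against 2.20, 1.87 and 2.46 in VMH and 4.22 and 3.80 in Arc. VMH was the lowest nucleus, with no overlap. Cited1 was 1.28 ± 0.23 (SE) higher in DMH than in VMH (limma adjusted p = 0.0464), and VMH lay below Arc at a difference of -1.84 ± 0.25 (adjusted p = 0.0215). The corepressor Ncor1 was 0.81 above Arc in DMH, and the coactivator Crebbp differed by -0.76 there, neither past the threshold (adjusted p = 0.143 and 0.150).

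Of 22 enzymes that make or inactivate steroids, 15 were measured and none was called. Cyp19a1, the aromatase that makes estrogen, read -2.77, -2.44 and -2.25 in DMH, against -1.33, -2.09 and -1.46 in VMH and -1.69 and -1.65 in Arc. DMH lay below the others without overlap, at a difference of -0.86 from VMH (limma adjusted p = 0.197) and -0.82 from Arc (adjusted p = 0.219). Hsd17b12, a dehydrogenase of steroid and fatty acid metabolism, was 1.64 higher in DMH than in Arc (adjusted p = 0.166).

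Of 16 genes known to respond to estrogen or progestin, 14 were measured, Pgr among them, and 3 were lower in DMH than in VMH. Rprm, a cell-cycle gene known to be regulated by estrogen in the VMH, read -1.28, -2.13 and -1.79 in DMH, against 1.00, 0.61 and 0.57 in VMH and -1.12 and -1.38 in Arc. It was high in VMH and low in both other nuclei, with differences of -2.46 ± 0.26 (SE) for DMH minus VMH (limma adjusted p = 0.00726) and 1.98 ± 0.30 for VMH minus Arc (adjusted p = 0.0291). Tac1, the precursor of substance P, was also highest in VMH: it read 1.11, 0.07 and 0.98 in DMH, 3.36, 2.98 and 2.81 in VMH, and -0.61 and 0.44 in Arc. Its differences were -2.33 for DMH minus VMH (adjusted p = 0.0337) and 3.14 for VMH minus Arc (adjusted p = 0.0196).

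Oxtr, the oxytocin receptor, read 1.19, 1.93 and 1.44 in DMH, against 2.95, 3.12 and 2.80 in VMH and 2.59 and 2.06 in Arc. The nuclei did not overlap, and DMH minus VMH was -1.44 ± 0.26 (SE; limma adjusted p = 0.0482), while DMH minus Arc was -0.80 (adjusted p = 0.226). Kiss1, the precursor of kisspeptin and a gene of Arc neurons that respond to estrogen, read -0.58, -0.65 and -0.27 in DMH, 0.58, -0.23 and -0.35 in VMH, and 2.78 and 3.42 in Arc. It was lower than in Arc by 12.1-fold in DMH and by 8.56-fold in VMH (adjusted p = 0.00978 and 0.0118). The estrogen-responsive genes thus differed from each other in which nucleus was high. The median over the 14 genes was -0.28 for DMH minus VMH and -0.18 for DMH minus Arc.

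Prolactin signalling was measured through 18 of 20 genes, and prolactin itself (Prl) was not among them, because in each nucleus its probe failed to stand well above background on some array. Tec, a kinase reported to act with Prlr, read 1.03, 1.61 and 1.68 in DMH, against 2.92, 2.98 and 2.92 in VMH and 3.02 and 2.64 in Arc. DMH was the low nucleus, at a difference of -1.50 ± 0.23 (SE) from VMH (limma adjusted p = 0.0306). Socs2, an induced inhibitor of the pathway, was high in Arc instead: it read -1.13, -0.89 and -1.19 in DMH, -0.76, -0.26 and -0.58 in VMH, and 0.67 and 1.05 in Arc. The differences were -1.93 for DMH minus Arc (adjusted p = 0.0308) and -1.39 for VMH minus Arc (adjusted p = 0.0495).

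Stat5a, which carries the prolactin signal to the nucleus of the cell, read -2.64, -3.18 and -2.43 in DMH, -2.88, -3.04 and -2.72 in VMH, and -1.11 and -1.03 in Arc. Arc stood above both other nuclei, with VMH minus Arc at -1.81 (limma adjusted p = 0.0263) and DMH minus Arc at -1.68 (adjusted p = 0.0526). Jak2 lay between 0.89 and 1.25 on all 8 arrays. Prlr was highest in VMH, while Stat5a and Socs2 were highest in Arc. Over the 18 genes the median was 0.08 for DMH minus VMH and -0.49 for VMH minus Arc.

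Of 20 genes known to respond to glucocorticoid, 18 were measured and none was called between any pair, with a median of 0.00 for DMH minus VMH. Sgk1, a kinase induced through Nr3c1 and Nr3c2, read 0.94, -0.24 and 0.21 in DMH, against -0.88, -1.32 and -0.70 in VMH and -1.64 and -1.14 in Arc. DMH lay above the other nuclei without overlap, by 1.27 over VMH (limma adjusted p = 0.154) and by 1.69 over Arc (adjusted p = 0.114). Tsc22d3, another induced gene, was 0.96 above Arc in DMH (adjusted p = 0.284), with DMH replicate 1 at 2.06 and the other DMH arrays at 0.92 and 0.98. Genes of other kinds were also highest on DMH replicate 1: Pgrmc2, a membrane-associated progesterone receptor component, read 0.69 there, against -1.31 and -1.13 on the other DMH arrays, and Atp5a1, a subunit of the ATP synthase, read 4.01, against 2.90 and 2.79.

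**Figure D3:**
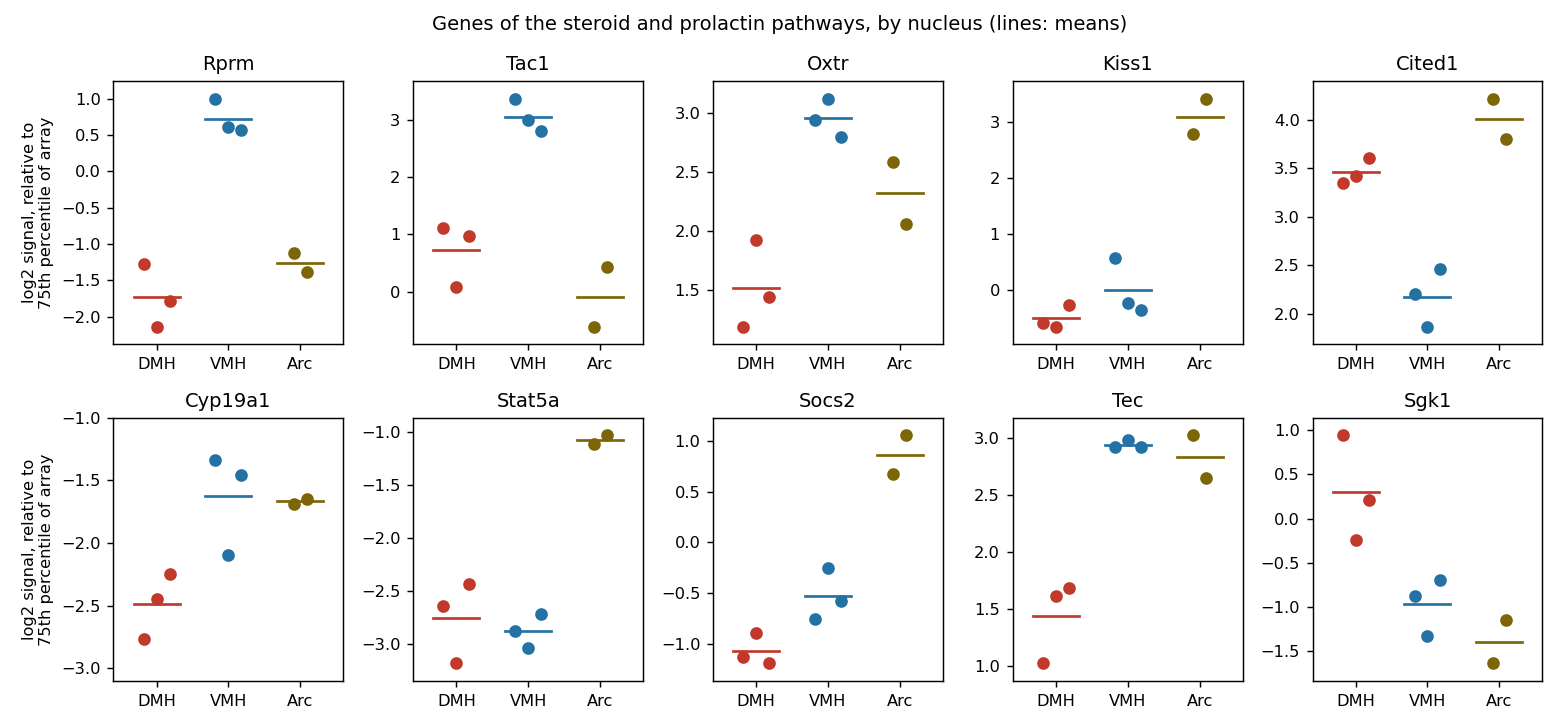
Signal, as log2 minus the array's 75th percentile (y axis, with its own range in each panel), for 10 genes of the steroid and prolactin pathways in DMH, VMH and Arc (x axis). Points are arrays and lines are means. Rprm, Tac1 and Oxtr are highest on the 3 VMH arrays, Kiss1, Stat5a, Socs2 and Cited1 on the 2 Arc arrays, and Tec and Cyp19a1 are lowest on the 3 DMH arrays.

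Some cells other than neurons also carry these receptors, Prlr in the choroid plexus above all. Of 10 markers of ependyma, tanycytes and choroid plexus, all 10 were measured and 8 were well above background on all arrays. Their summed signal, as multiples of the 75th percentile, was 2.69 to 3.16 in DMH, 4.48 to 5.61 in VMH and 6.05 to 6.58 in Arc, so it was lowest in DMH, as Prlr was. But the sum was highest in Arc, while Prlr was highest in VMH. Of these markers, Crym was lower in DMH than in VMH (difference -1.83, limma adjusted p = 0.0467), and Col23a1 differed by -1.49 (adjusted p = 0.0805). Crym was as low in Arc as in DMH, with means of -2.99 in DMH, -1.16 in VMH and -3.01 in Arc. Col23a1 had means of -0.61, 0.87 and 1.55. Of the choroid plexus markers, Folr1 read 0.18, 0.41 and 0.39 in DMH, 0.48, 0.60 and 0.42 in VMH, and 0.80 and 0.55 in Arc, so all DMH arrays lay below all others. Ttr read -2.31, -2.76 and -3.17 in DMH, -0.23, -3.36 and -1.61 in VMH, and -2.76 and -2.23 in Arc, with overlap between all nuclei. Kl went the other way, with means of -2.64 in DMH, -2.98 in VMH and -3.08 in Arc. Of the other markers in this list, Dio2 averaged -2.90, -3.31 and -2.64, and Rax -2.03, -2.05 and -1.53, so neither was lower in DMH than in VMH. The part of such cells in the Prlr difference was not tested. Summed neuron markers were also lower in DMH, at 168 to 208, against 215 to 260 in VMH and 249 to 255 in Arc. Summed microglia markers were lowest there too, at 112 to 150, against 160 to 189 in VMH and 212 to 244 in Arc. Most of each sum came from 1 gene, Snap25 (means of 7.08 in DMH, 7.47 in VMH and 7.70 in Arc) and Itgam (6.77, 7.22 and 7.61). The median over 10 microglia markers was 0.62 for DMH minus VMH and -0.28 for DMH minus Arc, with 0 called. Over 10 neuron markers it was -0.25 and -0.004, with 2 called lower than in VMH and 1 higher than in Arc. Summed astrocyte markers overlapped between nuclei (48.9 to 60.03 in DMH, 55.0 to 68.0 in VMH, 52.5 to 59.8 in Arc). In pooled neurons, fewer cells with a receptor and less receptor RNA per cell cannot be told apart.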

How the data were processed

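Per the file headers, the deposited values are red-channel spot intensities after background subtraction and detrending, not normalized between arrays. The software was Agilent Feature Extraction 11.5.1.1, as the submitters' processing notes state. The deposited table of the whole series runs in constant steps after its first 13 of 55681 entries and was not used. All arrays lie on 1 slide, so its row was tried as a block. Of 59305 non-control spots, outlier spots were left out, saturated spots kept, and spots of a probe averaged. The 41502 kept probes gave 27435 genes. A linear model (limma 3.58.1, R 4.3.3) fitted 1 mean for each nucleus over the 8 arrays (5 residual degrees of freedom), with Benjamini-Hochberg adjustment over all genes or probes and a threshold of 0.05. The number of arrays limits the precision. Signals not well above background entered the fit as measured, and "at least" folds use the lowest signal well above background of each dim array. The fit was tested on simulated arrays. The genes named are all members with every probe, up to 4 called genes of each list and comparison (or 2 with the smallest p), and the genes most correlated with each member. Not all of these are given here. Ttr, Folr1, Col23a1, Jak2 and Crym, and genes given for a sign, an order or their part in a sum, are further list members. Alternatives were normexp background correction (offset 50), other scalings, filters, a floor, other probe rules, trended and robust eBayes, array weights, blocks for the replicate number or slide row, and each array left out. List genes were not followed under them. A result for 1 list gene is not reported here. The members and lists were chosen with earlier results of these data known.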

Additional observations from a re-analysis of the deposited data

How the results depend on the processing

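The results were recomputed under 21 other settings, 8 of them leaving out 1 array, and 1 more chosen after seeing the data, in which the probe with the highest mean in any nucleus stands for a gene. Prlr stayed called for DMH against VMH in all 22 (limma adjusted p = 0.00232 to 0.0470). It lost its call for VMH against the mean of the others in 8 and for DMH against the mean in 6. The count of receptor genes called, 1 between DMH and VMH, 0 between DMH and Arc, 1 for VMH and 1 for DMH against the mean, and 1 in the F test, became 2, 2, 1, 2 and 2 with normexp background correction, where Esr1 was also called, and Prlr for DMH against Arc. With a floor at the lowest signal well above background these counts were 2, 1, 1, 2 and 2, with the added probe rule 2, 0, 1, 2 and 2, and averaging a gene's probes gave 1, 1, 0, 1 and 1; the gene called for DMH against Arc and for DMH against the mean was then Esr1. Unless an array was left out or the probe rule differed, the brightest kept probe was chosen anew, so the Esr1 probe could change. With the added rule it was the downstream probe, at -4.65 for DMH minus VMH, and the average of probes includes it. The filter kept that probe through VMH and Arc, so Esr1 calls that rest on it are not independent of the filter. When the slide row was a block, both comparisons with the mean had 0 calls. Leaving out 1 array gave 0 to 1 calls for VMH and for DMH against the mean and 0 to 1 in the F test. The count of calls on receptor probes over all comparisons, 5, was 3 without a filter on dim probes. It was 3 with probes well above background on all arrays, 3 with those on at least 1 array, and 0 to 6 with 1 array left out. Without an Arc array, the lone Arc sample is assumed to vary like the others.

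The replicate numbers were tried as a block. Deviations from the nucleus means correlated at 0.072 to 0.185 between arrays of the same number and at -0.126 to 0.015 between others. As not every pair was over 0.1, the numbers were not taken to pair the samples, though all 8 arrays correlated best with their own number. The 0.1 was a chosen cut-off and the ranges did not overlap, so the samples may be paired by number. But deviations within a nucleus sum to 0, which pushes r below 0 for other numbers where it is above 0 for the same number. With 2 Arc arrays the values mirror each other (0.072 and -0.072 for DMH replicate 1). The gap between the ranges is thus in part arithmetic and cannot settle the pairing. With the replicate block, 0 receptor genes were called for VMH against the mean, 0 for DMH against the mean and 0 in the F test. The count of calls on receptor probes was then 1 in place of 5. Prlr kept its call for DMH against VMH (adjusted p = 0.0312), and the downstream Esr1 probe lost its call (adjusted p = 0.116).

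The differences that changed sign were all of genes or probes without a call. With quantile normalization, DMH minus VMH was 0.014 and DMH minus Arc 0.14 for Esr2. With the mean of a gene's probes, VMH minus Arc was -0.024 for Nr3c1. With array weights, DMH minus VMH was -0.051 for Nr3c1 and 0.037 for Nr3c2. With the replicate block, VMH minus Arc was 0.041 for Esr1 and -0.077 for Esr2. With 1 array left out, DMH minus VMH ranged from -0.20 to 0.25 for Nr3c1 and from -0.67 to 0.30 for Nr3c2, VMH minus Arc from -0.25 to 0.022 for Esr1 and from -0.11 to 0.18 for Esr2, and DMH minus Arc from -1.23 to 0.094 for the Prlr coding probe. The causes were not tested. Pgr was called under none of the 22 for any pair.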
